A study of Mus musculus with 6 samples.

Results

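The MS4A genes encode small proteins that cross the cell membrane 4 times, and 5 of them, Ms4a4c, Ms4a6b, Ms4a6c, Ms4a6d and Ms4a7, are described here in mouse bone marrow derived macrophages (BMDM). The 5 genes were taken by symbol from a deposited table of 16978 genes, which holds 9 further genes with an Ms4a symbol. BMDM of wild type C57BL/6 mice were grown for 7 days with 25 ng/ml macrophage colony-stimulating factor and then treated for 6 hours with 200 ng/ml IL17B, or with PBS as the control. IL17B is a cytokine of the IL17 family, and the comparison asked how it acts on macrophages that received no other stimulus. Polyadenylated RNA was sequenced as single reads of 50 bases, with 3 libraries for each treatment, and the labels do not say whether these came from separate mice or cultures, so that p-values measure the spread between these libraries only.

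MS4A proteins are known as membrane adaptors that sit beside immune receptors and change how strongly they signal. The best known are CD20 of B cells (Ms4a1) and the beta chain of the high-affinity IgE receptor of mast cells (Ms4a2). Ms4a7 is widely used as a marker of macrophages, Ms4a4a binds the fungal receptor Dectin-1 on macrophages, and in humans variation in the MS4A gene cluster goes with the level of soluble TREM2, a myeloid lipid receptor. Ms4a4c is counted among the mouse genes that interferon induces, and Ms4a6d was described in mouse macrophages as a partner of the complement receptor Vsig4.

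The members lie near each other on chromosome 19, with other genes between them. In the RefSeq annotation of GRCm38.p6, the build of the deposited values, 21 Ms4a genes span 678.6 kb and the 5 members lie within 283.8 kb. Ms4a7 (gene ID 109225) lies at chr19:11321039-11336146 on the minus strand, Ms4a4c (64380) at chr19:11404717-11427246 on the plus strand, Ms4a6c (73656) at chr19:11469353-11487182 on the plus strand, Ms4a6b (69774) at chr19:11518559-11530403 on the plus strand and Ms4a6d (68774) at chr19:11586606-11604804 on the minus strand. Exons and coding sequences were taken from the GENCODE M21 transcript with the longest coding sequence of each gene. The members have 7 exons each except Ms4a6b with 8. Their coding sequences hold 217 codons for Ms4a6c, 226 for Ms4a4c, 244 for Ms4a6b, 247 for Ms4a6d and 267 for Ms4a7.

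Some of these genes are near copies of each other. The coding sequences of Ms4a6b and Ms4a6c were identical at 85.3% of aligned bases, those of Ms4a6b and Ms4a6d at 81.3% and those of Ms4a6c and Ms4a6d at 79.1%. Ms4a4c was closest to a gene that is no member, Ms4a4b, with 91.8% identity, while Ms4a7 shared between 64.1% and 66.1% of aligned bases with each of the other 4 members. The resemblance reaches into the promoters. RefSeq promoter windows of 300 bases were found for Ms4a4c, Ms4a6b, Ms4a6c and Ms4a7, and for Ms4a4b. Each runs from 250 bases before an annotated start to 50 bases after it, and that start need not be the start of the gene. The windows of Ms4a6b, Ms4a7 and Ms4a4b begin 250 bases before the gene start. That of Ms4a6c begins 235 bases before it, and that of Ms4a4c after it. The windows are shown because they make the copied stretches visible, and because the same copying in the transcripts bears on how reads were divided among the genes. In the first pair, Ms4a6c at chr19:11469118-11469417 and Ms4a6b at chr19:11518309-11518608, both on the plus strand, capitals mark the longest identical run, of 48 bases.
Ms4a6c: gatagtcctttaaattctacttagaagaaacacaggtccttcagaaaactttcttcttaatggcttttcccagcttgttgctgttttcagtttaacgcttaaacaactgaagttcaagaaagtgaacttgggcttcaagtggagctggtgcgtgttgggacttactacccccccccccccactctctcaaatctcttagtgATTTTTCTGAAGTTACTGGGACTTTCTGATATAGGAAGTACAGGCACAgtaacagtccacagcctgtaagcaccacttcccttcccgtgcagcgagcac
Ms4a6b: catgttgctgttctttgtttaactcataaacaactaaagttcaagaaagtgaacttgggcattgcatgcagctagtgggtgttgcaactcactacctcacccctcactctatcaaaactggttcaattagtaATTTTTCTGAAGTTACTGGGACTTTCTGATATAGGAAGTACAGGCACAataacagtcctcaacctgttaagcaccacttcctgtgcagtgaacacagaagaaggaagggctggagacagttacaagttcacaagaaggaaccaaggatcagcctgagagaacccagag

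The run stands at bases 202 to 249 of the Ms4a6c window and at bases 133 to 180 of the Ms4a6b window, so it lies at a different distance from the annotated start. In the second pair, Ms4a4c at chr19:11407411-11407710 and Ms4a4b at chr19:11443308-11443607, both on the plus strand, capitals mark an identical run of 20 bases at bases 213 to 232 and 210 to 229. The Ms4a4c window belongs to a start inside the span that RefSeq gives the gene.
Ms4a4c: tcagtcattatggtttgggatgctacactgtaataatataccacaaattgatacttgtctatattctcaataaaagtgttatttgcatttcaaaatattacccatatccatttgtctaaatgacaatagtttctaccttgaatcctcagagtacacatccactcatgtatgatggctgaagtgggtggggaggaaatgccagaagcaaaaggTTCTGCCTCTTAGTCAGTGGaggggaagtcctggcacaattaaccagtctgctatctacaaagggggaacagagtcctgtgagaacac
Ms4a4b: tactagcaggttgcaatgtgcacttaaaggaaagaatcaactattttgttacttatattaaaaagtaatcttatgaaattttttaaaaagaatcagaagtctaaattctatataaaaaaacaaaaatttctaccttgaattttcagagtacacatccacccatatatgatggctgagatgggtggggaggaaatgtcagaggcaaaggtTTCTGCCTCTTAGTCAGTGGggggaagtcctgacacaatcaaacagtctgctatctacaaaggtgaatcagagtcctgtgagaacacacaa

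The window of Ms4a7, the member with the highest level, lies at chr19:11336097-11336396 on the minus strand, and capitals mark the letters GGAAGT read on the opposite strand, at bases 236 to 241.
Ms4a7: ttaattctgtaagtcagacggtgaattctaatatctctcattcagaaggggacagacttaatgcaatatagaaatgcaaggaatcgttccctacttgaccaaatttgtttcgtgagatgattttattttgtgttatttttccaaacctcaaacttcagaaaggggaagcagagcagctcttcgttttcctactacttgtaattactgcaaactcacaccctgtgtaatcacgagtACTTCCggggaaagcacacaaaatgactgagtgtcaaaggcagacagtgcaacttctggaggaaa

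GGAAGT is the core of many sites of ETS factors, the family that holds the macrophage factor PU.1 (Spi1). Searched on both strands, it occurred once in the windows of Ms4a7 and Ms4a4c and at 2 places each in those of Ms4a6b and Ms4a6c, so in 4 of the 4 member windows. The same letters occur in 23.8% of 32851 promoter windows of the genome. In the Ms4a6b and Ms4a6c windows, 1 of the occurrences lies inside the 48-base run. The other, on the opposite strand, starts at base 208 of the Ms4a6b window and at base 276 of the Ms4a6c window. The letters just before it are also alike in both windows. The occurrences in these windows are therefore copies of each other and not separate cases. GAAA followed by GAAA after any 2 bases, the letters of an interferon-stimulated response element, occurred in none of the 4 windows and in 3.44% of all windows, and TGANTCA, the letters of an AP-1 site, in none of the 4 and in 7.81% of all. A match in letters was not tested as a binding site.

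Because reads were 50 bases long, the stretches of 50 bases that a gene shares with another gene bear on how many of its reads cannot be placed. Only exact matches were counted, which is not a count of the reads divided in the deposited values. Among mouse protein-coding transcripts (GENCODE M21), Ms4a7 shared 0 of its 1778 stretches with any other gene, Ms4a6d shared 2.69%, Ms4a6b 5.66%, Ms4a6c 7.37% and Ms4a4c 8.13%. Most of the shared stretches of Ms4a4c were with Ms4a4b (134 of 142), and most of those of Ms4a6c and Ms4a6b were with each other (109 stretches). The deposited values are counts estimated by RSEM, which divides such reads. Ms4a7 had whole numbers in 6 of 6 libraries, Ms4a6c in 1, and Ms4a4c, Ms4a6b and Ms4a6d in 0. Ms4a4a also had whole numbers in 0 of 6 libraries, although it shared 0 of 787 stretches in these transcripts. The division between Ms4a6b and Ms4a6c, and between Ms4a4c and Ms4a4b, is therefore less certain than the counting error alone, whereas Ms4a7 does not depend on it.

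The 6 libraries held between 20271450 and 20653371 estimated counts, and 13866 genes with at least 15 counts in all were tested. The macrophage label was borne out by its markers, as 10 of 10 were present and summed to between 28812 and 31183 CPM (counts relative to the normalised library size), with Lyz2, Csf1r and Cd68 the highest. Other marker lists bear on the Ms4a genes of other cells. Of the B cell markers, Ms4a1 had at most 2 counts in a library, and the list's sum of 19.5 to 24.2 CPM came mostly from Cd22. The T cell markers summed to between 12.5 and 16.0 CPM, mostly from Cd4 with 216 to 286 counts a library and Cd8a with 19 to 36, while Cd3e and Cd3g had at most 1 count. The mast cell and basophil markers summed to between 5.80 and 9.07 CPM, mostly from Kit, while Ms4a2 had at most 1 count. Kit had 122, 173 and 122 counts under PBS and 116, 117 and 112 counts after IL17B, which did not overlap and did not pass the test (adjusted p = 0.96 by edgeR). Of the 3 genes of this list that were tested, 2 did not overlap in the lower direction, Kit and Gata2, beside 4.77% of all genes tested. Gata2 was near the floor, with 4, 6 and 7 counts under PBS and 0, 2 and 2 after IL17B. Hepatocyte markers stood apart in 2 of the IL17B libraries. The 8 genes summed to between 0.146 and 0.490 CPM in the PBS libraries and to 0.343, 199 and 69.8 CPM in IL17B replicates 1, 2 and 3. The 8 nerve and stroma markers summed to between 39.9 and 46.4 CPM under PBS, and after IL17B to 37.0, 23.3 and 22.2 CPM. Their log2 fold changes were below 0 for 8 of 8, beside 6914 of the 13866 genes tested. For 3 of the 8 the treatments did not overlap in the lower direction, beside 4.77% of all genes tested, and 0 were called by edgeR. The summed CPM of the MS4A members was 933, 949 and 871 in IL17B replicates 1, 2 and 3. The part of these cells in this sum and in the values below was not tested. In bulk RNA, fewer cells of a type and less RNA per cell cannot be told apart.

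BMDM carried all 5 members, over a wide range of levels and in the same order under both treatments. Levels are compared between genes in TPM, which takes gene length into account. In each of the 6 libraries the order from high to low was Ms4a7, Ms4a6c, Ms4a6d, Ms4a6b and Ms4a4c. The members together made up 92.9%, 92.3% and 92.0% of the TPM of all Ms4a genes in the table under PBS and 91.3%, 91.6% and 91.6% after IL17B, so the treatments did not overlap in this share, which was singled out after its values were seen. In each library, Ms4a7 alone made up 61.3% to 63.8% of the TPM of the members.

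Ms4a7 stood at 783, 922 and 847 TPM in PBS replicates 1, 2 and 3 and at 878, 877 and 796 TPM in IL17B replicates 1, 2 and 3. These values placed it above 98.9% of the genes of the table in each library, and the groups overlap. Ms4a6c stood at 221, 263 and 245 TPM under PBS and at 268, 259 and 245 TPM after IL17B. Its IL17B values lie in the upper part of the PBS range, with 1 of 3 above it. Ms4a6d stood at 175, 227 and 181 TPM under PBS and at 198, 187 and 196 TPM after IL17B, so that the IL17B values lie between the PBS values. Ms4a6c and Ms4a6d are neighbours in the order whose ranges over libraries overlap, although Ms4a6c was the higher in each library, by a ratio of 1.16 to 1.39.

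Ms4a6b stood at 57.3, 74.2 and 50.6 TPM under PBS and at 65.3, 58.9 and 56.2 TPM after IL17B, and again the IL17B values fall within the PBS range. Ms4a4c was the lowest, at 5.69, 15.2 and 4.01 TPM under PBS and 4.34, 5.18 and 5.24 TPM after IL17B. A single library, PBS replicate 2, stood far above the other 5, which all lay between 4.01 and 5.69 TPM. The ranges of Ms4a7, of Ms4a6b and of Ms4a4c overlap with those of no other member.

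**Figure D1:**
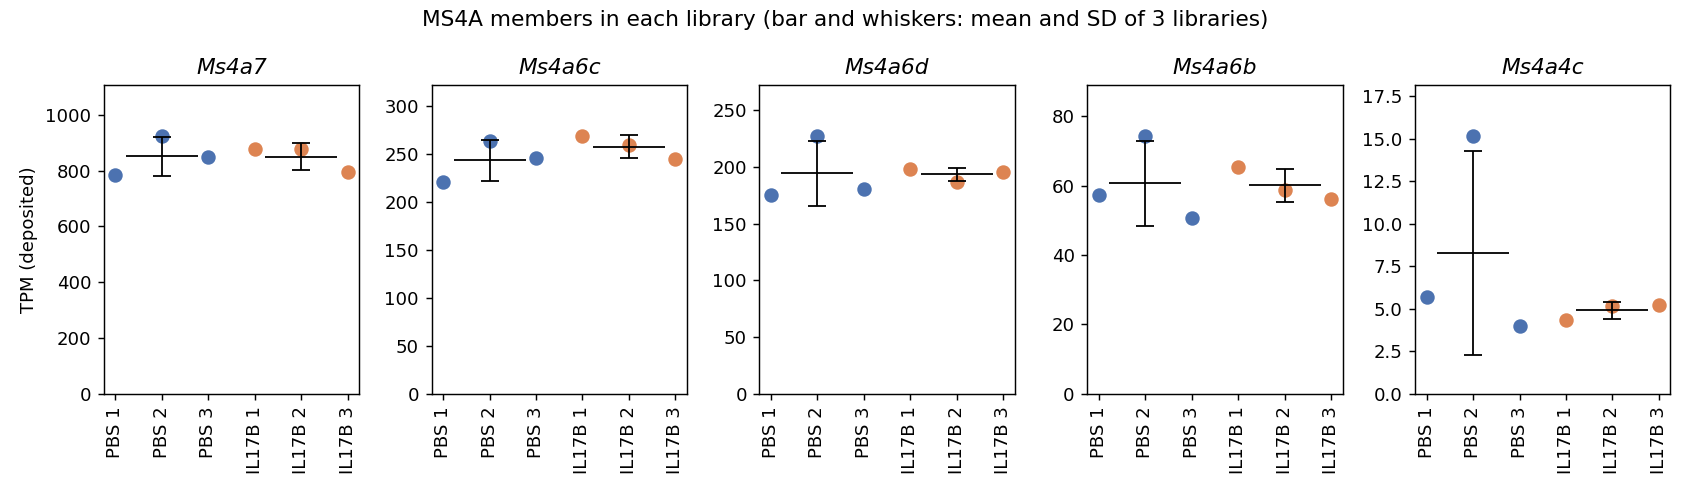
Level of each MS4A member in TPM (vertical axes, from 0) in the 3 PBS libraries (blue points) and the 3 IL17B libraries (orange points), with the mean (horizontal bar) and SD (whiskers) of each treatment. The treatments overlap in every panel, and PBS replicate 2 stands alone in the Ms4a4c panel at 15.2 TPM.

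Of the other Ms4a genes in the table, 3 were above the count minimum. Ms4a4a stood at 41.6, 62.0 and 55.9 TPM under PBS and 66.3, 63.4 and 55.7 TPM after IL17B, and Ms4a14 at 51.6, 61.0 and 60.0 TPM under PBS and 67.7, 62.4 and 62.0 TPM after IL17B. Both were therefore close to Ms4a6b in level. Ms4a4b, an adaptor known from mouse T cells, had 21.05, 12.99 and 1.06 estimated counts under PBS and 13.23, 10.41 and 7.88 after IL17B. Ms4a4b is the near copy of Ms4a4c, and reads that fit both cannot be told apart. Ms4a1, Ms4a2, Ms4a4d, Ms4a8a, Ms4a12 and Ms4a15 had between 1 and 6 counts in all 6 libraries together and were not tested.

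**Figure D2:**
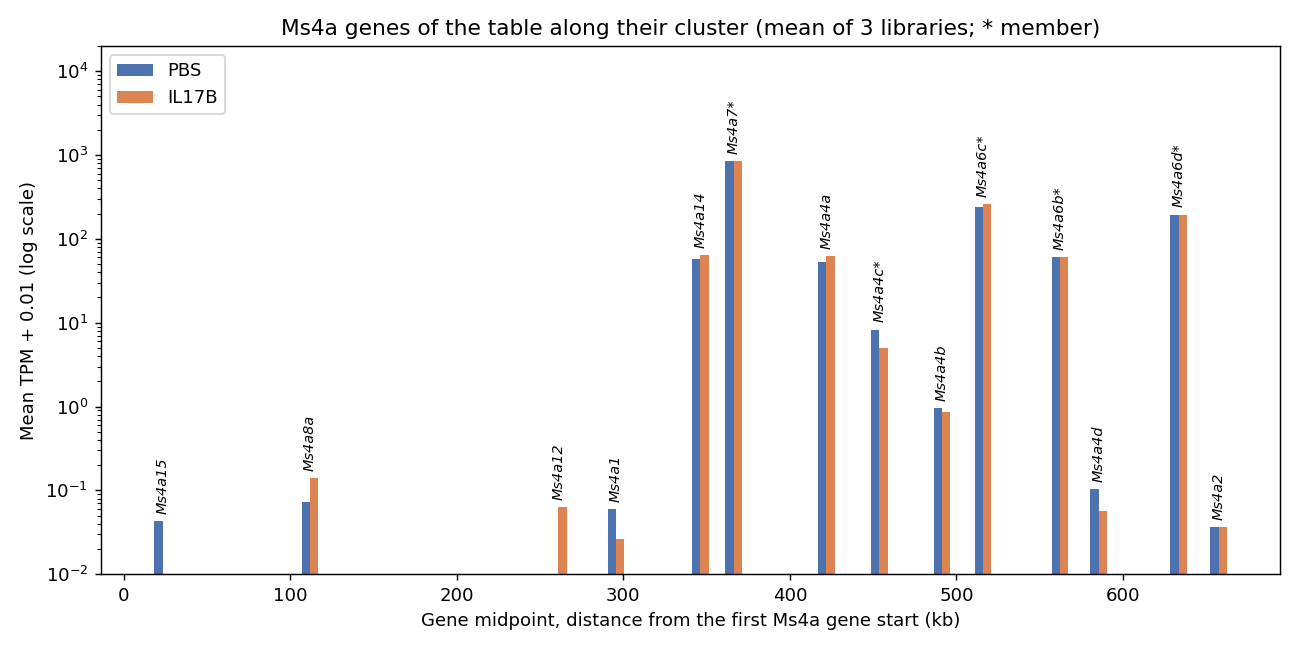
Mean TPM of the 3 libraries of each treatment (PBS blue, IL17B orange), with 0.01 added for a logarithmic axis, for the Ms4a genes of the table by the distance of the gene's midpoint from the first Ms4a start in kb; stars mark members. The 8 genes tested stand together in the stretch from Ms4a14 to Ms4a6d, and of the 6 with 1 to 6 counts, 4 lie to the left of it, Ms4a4d within it and Ms4a2 to the right.

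After 6 hours of IL17B, none of the 5 members passed the test. By edgeR's quasi-likelihood test, 0 of 5 members and 0 of 13866 genes (0%) had an adjusted p of at most 0.05. At an unadjusted p under 0.05 there were 0 of 5 members, beside 726 genes (5.24%). DESeq2 called 6 of the 13866 genes and 0 of the 5 members. The median log2 fold change of the members, IL17B over PBS, was -0.01, beside 0.00034 over all genes tested, with 1 member above 0 and 4 below. The groups overlapped for 5 of 5 members, while they did not overlap for 5.16% of all genes in the higher direction and for 4.77% in the lower.

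The intervals show how large a change these libraries leave possible. For Ms4a7, at 542 ± 35.9 CPM under PBS and 540 ± 34.3 CPM after IL17B (SD, n = 3 each), the log2 fold change was -0.0039 (SE 0.064, 95% interval -0.15 to 0.14, adjusted p = 1 by edgeR). That interval runs from 0.903 to 1.10 as a fold of the PBS level. Ms4a6d was at 127 ± 16.7 CPM under PBS and 126 ± 1.18 CPM after IL17B, a log2 fold change of -0.0084 (interval -0.18 to 0.17, SE 0.079, adjusted p = 0.998 by edgeR), and its fold interval runs from 0.88 to 1.12. Ms4a6b was at 49.1 ± 9.25 CPM under PBS and 48.6 ± 3.37 CPM after IL17B, a log2 fold change of -0.02 (interval -0.27 to 0.24, SE 0.11, adjusted p = 0.998 by edgeR). A change of Ms4a6b beyond 0.828 or 1.18 of the PBS level would lie outside that interval.

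Ms4a6c, the member with a fold change above 0, was at 186 ± 15.2 CPM under PBS and 198 ± 6.06 CPM after IL17B. Its log2 fold change of 0.09 (SE 0.061, interval -0.05 to 0.23) did not pass the test (adjusted p = 0.976 by edgeR). Ms4a4c was at 6.87 ± 4.91 CPM under PBS and 4.12 ± 0.472 CPM after IL17B. Its log2 fold change of -0.74 was the farthest from 0 among the members and had the widest interval (SE 0.41, interval -1.64 to 0.17, adjusted p = 0.96 by edgeR), which spans 0.32 to 1.12 of the PBS level. Without PBS replicate 2 it was 0.017, so the sign of the Ms4a4c difference rests on that library.

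**Figure D3:**
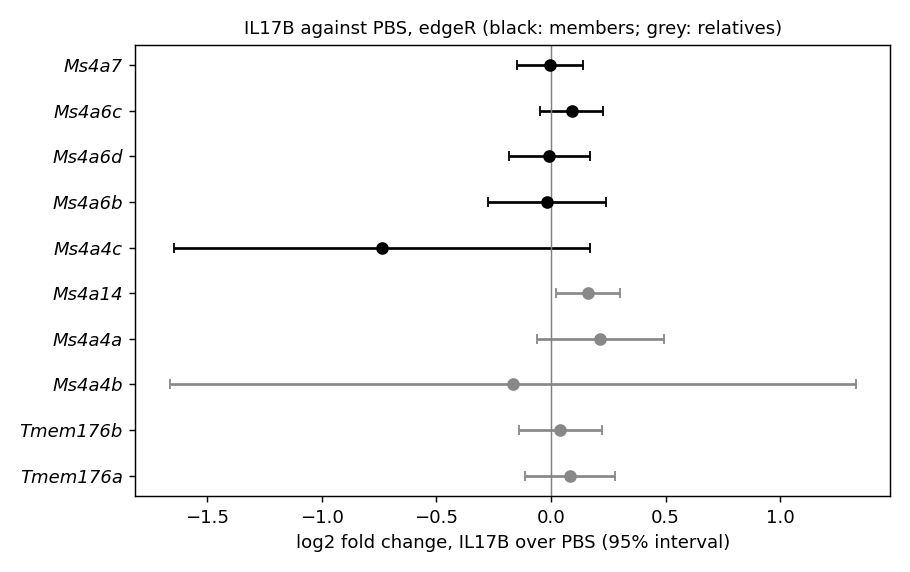
log2 fold change of IL17B over PBS (horizontal axis) with its 95% interval from edgeR for the 5 members (black) and for Ms4a14, Ms4a4a, Ms4a4b and the related Tmem176b and Tmem176a (grey). Each member's interval includes 0, and that of Ms4a4c, from -1.64 to 0.17, is the widest of the members.

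The summed CPM of the members was 847, 999 and 888 in the PBS libraries and 933, 949 and 871 in the IL17B libraries. The means were 911 ± 78.5 CPM and 918 ± 41.5 CPM, a difference of 6.47 CPM that is far less than either SD. The ratio of Ms4a7 to Ms4a6c in TPM was 3.54, 3.51 and 3.45 under PBS and 3.28, 3.38 and 3.25 after IL17B, so the treatments did not overlap. An exact permutation test of 3 against 3 libraries cannot go below p = 0.1, and this ratio was singled out after its values were seen. The ratio of Ms4a6c to Ms4a6b, the near copies, was 4.09 ± 0.683 under PBS and 4.29 ± 0.163 after IL17B, and that of Ms4a6c to Ms4a6d was 1.26 ± 0.0987 and 1.33 ± 0.0708.

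PBS replicate 2 was high for much of the family. It held the highest CPM of Ms4a4c, Ms4a6b, Ms4a6d and Ms4a7, 4 of the 5 members, and it held the highest CPM for 18.8% of all genes tested. The fifth member, Ms4a6c, was at 202 CPM in that library and at 203 CPM in IL17B replicate 1. The spread among PBS libraries exceeded counting error for all members. As a coefficient of variation it was 71.4% for Ms4a4c, where counting alone gives 9.41%, and 13.1% for Ms4a6d, where counting gives 1.96%. For Ms4a7 it was 6.64% against 0.95%. The IL17B libraries varied by 11.5% for Ms4a4c and by 0.933% for Ms4a6d, in both cases near or below the counting error, and by 6.35% for Ms4a7. They varied by 6.94% for Ms4a6b and 3.05% for Ms4a6c, where counting gives 3.16% and 1.59%. Spread beyond counting was also found as a mean over many genes, in which genes with high counts can weigh most. Over 11456 to 11543 genes, the mean variance between 2 PBS libraries was 7.77 to 10.1 times that of counting. Between 2 IL17B libraries it was 4.93 to 6.59 times.

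Leaving out PBS replicate 2 moved every member upwards. The log2 fold changes without it were 0.017 for Ms4a4c, 0.14 for Ms4a6b, 0.15 for Ms4a6c, 0.10 for Ms4a6d and 0.05 for Ms4a7. None passed edgeR's test (adjusted p from 0.964 for Ms4a6c, Ms4a6b and Ms4a6d to 0.995 for Ms4a4c). Of the 6 libraries, no other moved Ms4a4c above 0, and Ms4a6c stayed above 0 whichever library was left out, between 0.04 and 0.15.

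**Figure D4:**
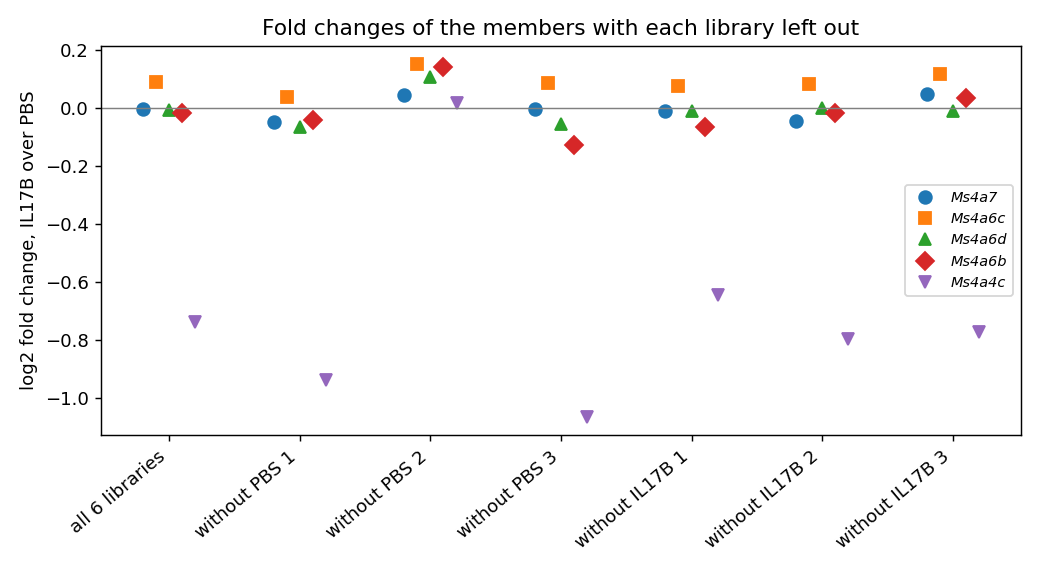
log2 fold change of IL17B over PBS (vertical axis) for each MS4A member, with all 6 libraries and with each library left out in turn (horizontal axis). Ms4a4c lies between -1.07 and -0.64 except without PBS replicate 2, where all 5 members lie between 0.02 and 0.15.

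Across the 6 libraries the members varied together to different degrees, which is given as a description, as the points share PBS replicate 2. On log2 CPM, the 10 pairs of members had Pearson r between 0.295 and 0.845 and Spearman rho between 0.0286 and 0.771 (n = 6 libraries). The highest r was that of Ms4a4c with Ms4a6d, at 0.845 with a rho of 0.257, a gap that goes with 1 far library. Ms4a6b and Ms4a6d had r = 0.836 and rho = 0.543, and Ms4a6b and Ms4a6c, the near copies, r = 0.590 and rho = 0.771.

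Of 8679 genes with a mean of at least 10 CPM, those most like each member over the libraries differed from member to member. For Ms4a6b the closest was Ccr2 (r = 0.988, n = 6), the chemokine receptor of monocytes, at 9.33, 12.7 and 7.98 CPM under PBS and 11.4, 9.87 and 8.92 CPM after IL17B, then Baz1a and Zfp770. Like Ms4a6b, Ccr2 was highest in PBS replicate 2 and lowest in PBS replicate 3. Other monocyte markers ran the other way, as r with Ms4a6b was -0.978 for S100a4, -0.463 for Vcan, -0.345 for Chil3 and -0.244 for Ly6c2. For Ms4a4c they were Arf4, Selenof and Pdia6 (r = 0.991, 0.986 and 0.985, here among 8680 genes), of which Pdia6, an enzyme that forms disulfide bonds in the endoplasmic reticulum, was at 177 CPM in PBS replicate 2 and between 120 and 142 CPM elsewhere. For Ms4a6c they were Glb1l, Rufy3 and Rundc1, for Ms4a6d Cdv3, Sh3glb1 and Nek7, the last a kinase that Nlrp3 needs for its activation, and for Ms4a7 Zbtb40, Atg4c and Gpr162, all with r between 0.981 and 0.990. Between 63 and 119 genes reached an r of at least 0.9 with a given member.

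Interferon-stimulated genes bear on Ms4a4c. Of a list of 20, 19 were tested and 0 were called by edgeR in either direction, with 13 log2 fold changes above 0, 6 below and a median of 0.12, beside 0.00034 over all genes. The list summed to 1970, 2467 and 1250 CPM under PBS and 1502, 1531 and 1801 CPM after IL17B. Within the list, genes differed in how close they were to Ms4a4c. Irf7, the factor that amplifies interferon production, was at 106, 185 and 42.5 CPM under PBS and 61.1, 64.3 and 70.9 CPM after IL17B. Like Ms4a4c it was highest in PBS replicate 2 and lowest in PBS replicate 3, with r = 0.927 over the 6 libraries. Ly6e was at 801, 1053 and 348 CPM under PBS and 512, 471 and 386 CPM after IL17B (r = 0.829), and Bst2, which tethers budding virus to the cell, at 139, 187 and 85.2 CPM under PBS and 101, 98.1 and 85.0 CPM after IL17B (r = 0.880).

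Among the other interferon-stimulated genes, Oas3, Ifi44 and Zbp1 were also highest in PBS replicate 2, at 179, 14.5 and 15.9 CPM. In IL17B replicate 3 they were close to this, at 178, 12.9 and 14.7 CPM. Others peaked elsewhere. Rsad2, the antiviral enzyme viperin, was at 28.9, 37.5 and 24.1 CPM under PBS and 27.2, 26.3 and 63.6 CPM after IL17B, with its peak in IL17B replicate 3. Ifit1 was at 45.0 CPM in that library and between 18.5 and 24.8 CPM in the other 5. Ms4a4c, at 4.34 CPM in IL17B replicate 3, had no peak there, and its r was 0.131 with Ifit1 and 0.275 with Rsad2. Over the 19 genes its r ran from -0.0865 to 0.927, with Ifit2 (0.534), Oasl2 (0.618), Zbp1 (0.699), Oas3 (0.702) and Ifi44 (0.756) in between. The log2 fold changes were -0.76 for Irf7 (adjusted p = 0.96 by edgeR), -0.69 for Ly6e and -0.54 for Bst2 (adjusted p = 0.941 each). Of these genes, Irf7, Bst2, Ifit1, Ifit2, Rsad2, Oasl2, Zbp1 and Ifi44 were named after their values were seen.

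**Figure D5:**
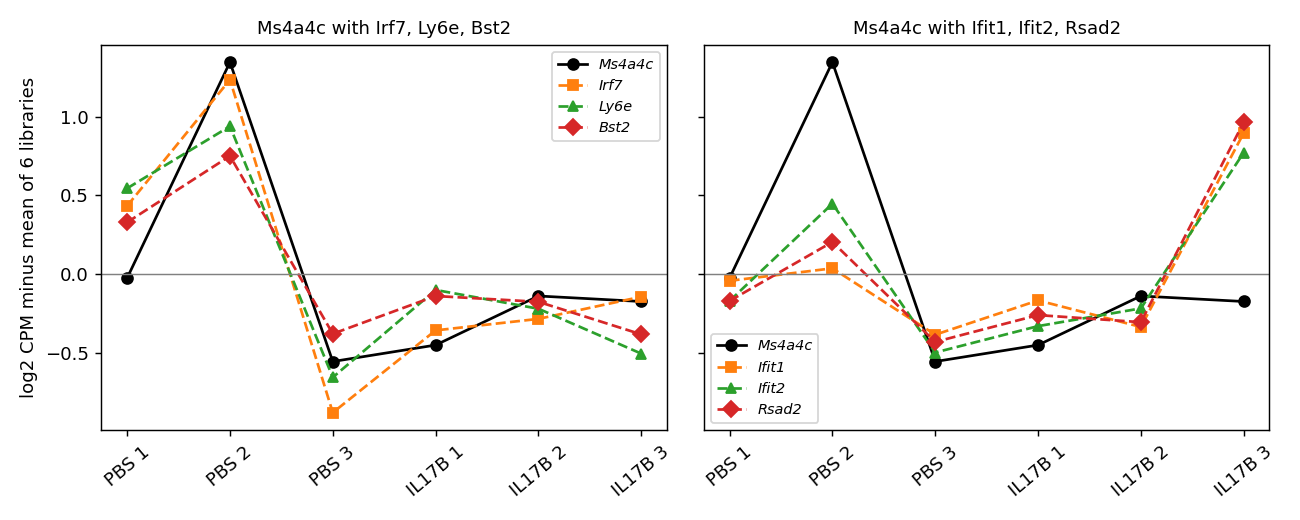
log2 CPM minus the gene's own mean over the 6 libraries (vertical axis), by library, for Ms4a4c (black in both panels) with Irf7, Ly6e and Bst2 (left) and with Ifit1, Ifit2 and Rsad2 (right). The genes on the left peak with Ms4a4c in PBS replicate 2, and those on the right peak in IL17B replicate 3, where Ms4a4c was at 4.34 CPM.

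Of the other MS4A relatives, Ms4a14 came closest to a difference. Its 2164, 2518 and 2490 counts under PBS and 2757, 2646 and 2584 counts after IL17B did not overlap, and its log2 fold change was 0.16 (SE 0.063, interval 0.02 to 0.30, unadjusted p = 0.0286, adjusted p = 0.941 by edgeR). It thus did not pass, and 5.16% of all genes tested were as separate in that direction. Ms4a4a, at 25.0 ± 4.60 CPM under PBS and 29.0 ± 2.59 CPM after IL17B, differed by 0.22 on the log2 scale (SE 0.12, adjusted p = 0.973 by edgeR). Ms4a4b had -0.17 (SE 0.67). The ion channel genes Tmem176a and Tmem176b, relatives of the MS4A genes, had 0.08 and 0.04 (adjusted p = 0.988 and 0.99 by edgeR), at 35.5 ± 1.65 and 127 ± 5.41 CPM under PBS.

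Proteins reported to bind or signal with an MS4A protein were well represented. Of 15 such genes, 13 were tested and 0 were called by edgeR in either direction. Their log2 fold changes had a median of 0.04, with 10 above 0 and 3 below. Over all genes tested the median was 0.00034, with 6952 above 0 and 6914 below. The treatments did not overlap for 2 of the 13, Clec7a and Lyn, both higher with IL17B. In that direction 5.16% of all genes tested did not overlap. Clec7a, which encodes Dectin-1, was at 414, 369 and 413 CPM under PBS and 435, 422 and 432 CPM after IL17B, and the treatments did not overlap. On the log2 scale its fold change was 0.11 (SE 0.054, adjusted p = 0.96 by edgeR). Syk and Card9, which carry the Dectin-1 signal, had 0.04 and -0.03. Trem2 was at 879 ± 15.8 CPM under PBS and 847 ± 59.0 CPM after IL17B, a log2 fold change of -0.05 (adjusted p = 0.988 by edgeR), and its adaptor Tyrobp had 0.04.

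Of the IgE receptor complex that Ms4a2 belongs to, Fcer1g was at 1157 ± 80.5 CPM under PBS and 1173 ± 28.5 CPM after IL17B, and the kinase Lyn had a log2 fold change of 0.07 without overlap of the treatments (adjusted p = 0.976 by edgeR). Vsig4, the partner described for Ms4a6d, had no count in any of the 3 PBS libraries, and 1, 0 and 3 counts after IL17B, so the BMDM carried Ms4a6d RNA with hardly any Vsig4 RNA. Nlrp3, the inflammasome sensor, was at 88.5 ± 2.18 CPM under PBS and 89.2 ± 2.76 CPM after IL17B. Jak2, Stat3, Socs3 and Prnp had log2 fold changes of 0.05, 0.01, 0.11 and 0.07, and Tnfrsf18, which encodes GITR, the T cell receptor that Ms4a4b joins, had -0.42 from 7 to 19 counts a library. None of these 5 passed the test.

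Of 10 transcription factors of macrophage genes, 0 were called by edgeR, with a median log2 fold change of -0.01. Spi1, which encodes PU.1, was at 466 ± 16.5 CPM under PBS and 454 ± 25.6 CPM after IL17B. Mef2a, of the MEF2 family, was at 452 ± 15.7 and 455 ± 13.5 CPM. Of the monocyte markers 7 were tested and 0 called, and the list summed to between 376 and 499 CPM, mostly from S100a4. Their log2 fold changes had a median of 0.27, with 6 above 0 and 1 below. Over all genes tested the median was 0.00034, with 6952 above 0 and 6914 below. The treatments did not overlap for 1 of the 7, higher with IL17B, beside 5.16% of all genes tested. Vcan, a matrix proteoglycan of monocytes, was at 13.8, 12.5 and 18.9 CPM under PBS and 22.8, 19.9 and 23.1 CPM after IL17B, without overlap. Its log2 fold change was 0.54 (interval 0.23 to 0.85, SE 0.14), and it did not pass (adjusted p = 0.862 by edgeR). Ly6c2, which marks inflammatory monocytes, had 3 to 7 counts a library.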

How the data were processed

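RNAseq values were those deposited for 6 BMDM libraries, 3 treated with PBS and 3 with IL17B, grouped by the titles in the labels. The authors filtered the reads, mapped them to GRCm38 with HISAT2 2.0.4 and to coding genes with Bowtie2 2.2.5, and calculated with RSEM 1.2.12 the deposited estimated counts and TPM of each gene. Strandedness is not given in the sources used here. The authors' test was DESeq2 1.4.5.

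Estimated counts were rounded, and the 13866 genes whose counts summed to 15 or more were tested for IL17B against PBS (TMM normalisation and quasi-likelihood test of edgeR 4.0.16, R 4.3.3, Benjamini-Hochberg adjusted p of at most 0.05). TMM factors lay between 0.994 and 1.01. SEs come from the quasi-likelihood statistic, and counting errors and intervals do not cover reads divided between copies. Steps were tested on simulated data. Alternatives were DESeq2 1.42.0, limma 3.58.1 (voom with quality weights, and log2 of TPM plus 0.1 or 1), other size factors and filters, a replicate block and each library left out. Correlations used log2(CPM + 1). The members, the relatives and partners (each named), and the gene lists (up to 3 members of the highest mean named) were chosen with earlier results of these data known. Gene positions and promoter windows are RefSeq, and exons, coding sequences and shared stretches come from GENCODE M21. Ms4a genes outside the table were not analysed here.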

Additional observations from a re-analysis of the deposited data

How the results depend on the processing

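None of the 5 members was called under any of the 16 alternatives. Over all genes, 0 were called by edgeR, while DESeq2 called 6, limma on log2 TPM plus 0.1 called 1 with or without the filter, and leaving out each library gave 0 to 86, the 86 without IL17B replicate 1. Whether libraries of the same replicate number belong together cannot be settled from 3 libraries for each treatment. After each treatment's mean was taken off, r between libraries of the same number was -0.16, 0.0094 and -0.14. Between libraries of different numbers it ran from -0.105 to 0.246. A replicate block gave 76 calls, 0 of them members. The cause was not tested.

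Signs near 0 turned. With each library left out, log2 fold changes ran from -1.07 to 0.017 for Ms4a4c, -0.13 to 0.14 for Ms4a6b, 0.04 to 0.15 for Ms4a6c, -0.066 to 0.10 for Ms4a6d and -0.048 to 0.047 for Ms4a7. Values above 0 came without PBS replicate 2 for Ms4a4c (0.017), Ms4a6b (0.14), Ms4a6d (0.10) and Ms4a7 (0.045), and without IL17B replicate 3 for Ms4a6b (0.035) and Ms4a7 (0.047). By limma-voom, Ms4a6b was at 0.015 and Ms4a6d at 0.010. On log2 TPM plus 0.1, with or without the filter, Ms4a6b was at 0.0024, Ms4a6d at 0.0042 and Ms4a7 at 0.00045, and with 1 added they were at 0.0022, 0.0042 and 0.00045. Ms4a6c kept its sign under all 16 alternatives. The difference in summed CPM ran from -24.1 to 49.8. Counting error limits Ms4a4c (9.41% a library) more than Ms4a7 (0.95%).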
